A study of Mus musculus with 8 samples.

Results

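The genes followed here encode the outer dense fibers and the fibrous sheath of the sperm tail, and they were taken as a fixed list by gene symbol: *Odf1*, *Odf2*, *Odf3*, *Odf4*, *Akap3*, *Akap4*, *Fsip1*, *Ropn1*, *Ropn1l* and *Spa17*. All 10 were found among the 23343 genes of the RNA-seq tables, and all 10 had H3K27ac peaks at their start sites. H3K27ac was profiled by ChIP-seq in adult C57BL/6 wild-type males, in spermatocytes at the pachytene stage (PS) and in spermatids that are still round (RS), with 2 samples for each stage, which the study calls biological replicates. RNA was sequenced in PS and RS of adult C57BL/6 males that lacked both *Rnf8* and *Scml2* (the *Rnf8;Scml2*-dKO), again with 2 samples per stage, and no wild-type RNA was analysed here. PS and RS were separated from testis by sedimentation, for the dKO on a small scale that allowed both stages to be taken from 1 male in a preparation. Because the chromatin is from wild-type mice and the RNA from the dKO, each assay answers how a gene differs between the stages within its own genotype, and a difference between the assays cannot be told apart from one between the genotypes.

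Outer dense fibers are stiff cables that run beside the axoneme of the sperm tail, and the fibrous sheath surrounds the principal piece of the tail, where it carries glycolytic enzymes and protein kinase A. A-kinase anchoring proteins hold the regulatory subunits of protein kinase A in the sheath, and proteins with an RIIa domain, like that of the regulatory subunits, dock onto the same anchors. The tail is assembled in spermatids, and many of its genes are transcribed in spermatids and some already in spermatocytes. Acetylation of lysine 27 of histone H3 (H3K27ac) is a mark of active promoters and enhancers.

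The promoters of 8 of the 10 genes were in the RefSeq promoter table (build GRCm38.p6, the sequence of mm10). *Odf1* and *Fsip1* were not matched. *Akap3* and *Akap4* are shown first because, among 70 pairings of promoters of different genes of the list, theirs shared the longest identical run within the 250 bases upstream of the start site. The run was 20 bases long and is in capitals. It lies from 34 to 15 bases before the start of *Akap3* and from 47 to 28 bases before the upstream start of *Akap4*. The next longest run in any pairing was 11 bases and the median was 8 bases. Of all 32851 promoters of the table, 2 held the 20 bases on either strand, those of *Akap3* and *Akap4*; this run was searched for after it had been seen. Both stretches are on the plus strand, *Akap3* at chr6:126852848-126853097 and *Akap4* at chrX:7067265-7067514.
Akap3: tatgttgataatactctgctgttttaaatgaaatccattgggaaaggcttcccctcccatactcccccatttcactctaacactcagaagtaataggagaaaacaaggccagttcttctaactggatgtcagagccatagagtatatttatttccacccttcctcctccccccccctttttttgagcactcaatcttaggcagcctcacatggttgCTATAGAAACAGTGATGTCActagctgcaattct
Akap4: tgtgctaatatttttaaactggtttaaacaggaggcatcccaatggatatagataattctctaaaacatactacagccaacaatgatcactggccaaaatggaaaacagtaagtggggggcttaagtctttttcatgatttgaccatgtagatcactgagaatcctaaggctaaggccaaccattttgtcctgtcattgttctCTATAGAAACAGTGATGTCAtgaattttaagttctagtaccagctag

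The promoters of the list also differed in their number of CpG dinucleotides, and *Odf2* and *Odf4* are shown as examples, with each CpG in capitals. The 250 bases upstream of the first *Odf2* start, on the plus strand at chr2:29889470-29889719, held 22 CpGs and were 68.4% G or C. The same stretch of *Odf4*, on the minus strand at chr11:68927082-68927331, held 2 CpGs and was 49.6% G or C.
Odf2: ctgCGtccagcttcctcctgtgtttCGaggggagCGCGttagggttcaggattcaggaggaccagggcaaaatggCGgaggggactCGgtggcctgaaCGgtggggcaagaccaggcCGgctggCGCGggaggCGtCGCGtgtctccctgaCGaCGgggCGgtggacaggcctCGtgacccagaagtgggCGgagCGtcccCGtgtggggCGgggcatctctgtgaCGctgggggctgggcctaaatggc
Odf4: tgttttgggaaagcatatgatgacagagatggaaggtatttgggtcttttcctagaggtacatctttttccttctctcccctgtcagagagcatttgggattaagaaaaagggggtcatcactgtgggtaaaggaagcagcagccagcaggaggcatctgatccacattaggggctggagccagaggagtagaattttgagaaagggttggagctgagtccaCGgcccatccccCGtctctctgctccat

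*Ropn1l* held 18 CpGs in the same stretch and *Spa17* 13, whereas *Ropn1* held 2, *Odf3* held 1, and *Akap3* and both starts of *Akap4* held 0. The median over all promoters of the table was 6. Of the 8 genes, the 3 with CpG-rich promoters were thus *Odf2*, *Ropn1l* and *Spa17*. They were also the 3 genes with the highest RNA level in PS, as given below. A relation between CpG number and RNA level was not tested. The CRE (TGACGTCA, bound by CREM) was in 0 of the 8 genes and 1.55% of all promoters, and its core TGACG, which the full CRE also contains, in 1 gene (*Odf2*) and 17.8% of all promoters. The MYB site AACTGNC was in 2 genes (*Akap3* and *Odf2*) and 10.6% of all promoters. In *Odf2* it lay before the starts 29889817 and 29889990, which are not starts of the *Odf2* rows in the RNA data. The RFX site GTTGCCA and the TATA box TATAAA were in 0 of the 8 genes, and in 3.66% and 12.4% of all promoters. Both strands of the 250 bases were searched, and a match is only a match of letters. The 8 genes had 13 promoters, and a gene was counted if any of its promoters matched. The background is a share of promoters, so these counts and shares are not in the same unit.

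The RNA libraries held 9655405 to 12289694 reads on genes. Spermatocyte markers (9 genes) summed to 752 to 797 RPKM (reads per length of transcript and size of library) in PS and 286 to 333 in RS, led by *Piwil1*. Spermatid markers (8 genes, led by *Prm2*) summed to 488 and 824 RPKM in PS replicates 1 and 2 and to 13583 and 14294 in RS. Leydig markers (6 genes, led by *Insl3*) also moved with stage, from 783 and 566 RPKM in PS to 71.9 and 45.0 in RS, with none of the 6 at 0. Sertoli markers (7 genes, led by *Clu*) summed to 24.4 to 71.1 RPKM in the 4 libraries, spermatogonial markers (6 genes, led by *Stra8*) to 17.5 to 33.5, and peritubular markers (3 genes, led by *Acta2*) to 1.81 to 3.32. Macrophage and blood markers (4 of 5 in the tables, led by *Csf1r*) summed to 0.892 and 0.954 RPKM in PS and 9.94 and 8.59 in RS, with *Hbb-b1* and *Hba-a1* at 0 reads throughout. The targeted genes kept reads in all dKO libraries, *Rnf8* 50 to 110 and *Scml2* 40 to 98. The tables do not split reads by exon, so these counts do not check the deleted parts. In the ChIP-seq, RS replicate 1 stood apart with 74919 peaks against 41095 to 49434 in the other samples.

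RNA of the 10 genes took a larger share of the RS libraries than of the PS libraries. It held 0.416% and 0.474% of the reads on genes in PS and 1.32% and 1.22% in RS. By edgeR's quasi-likelihood test over 14647 genes, 8 of the 10 rose in RS, 0 fell, and *Odf4* and *Ropn1l* were not called (adjusted p under 0.05 and at least 1.5-fold). Of all genes tested, 30.4% were called higher in RS and 27.6% lower. By RPKM, both RS samples lay above both PS samples in the same 8 genes, and in 40.9% of all genes tested, with 42.7% the other way. The median log2 fold change was 2.49 for the 10 genes and 0.01 for all genes. In bulk RNA of a purified population, more cells with an RNA and more RNA per cell cannot be told apart. RPKM and the scaled counts are also relative to the other RNA of the library. The total RNA per cell was not measured, so rises and unchanged levels are relative.

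**Figure D1:**
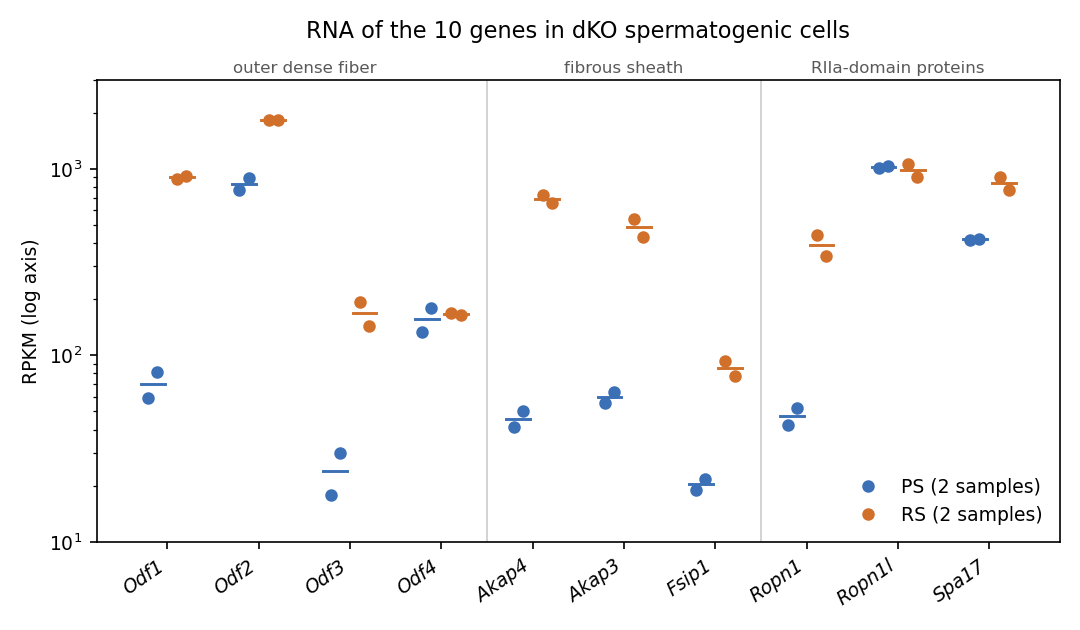
RPKM of each gene (log axis) in the 2 PS (blue) and 2 RS (orange) samples of the dKO, with a bar at the mean. Genes are grouped as outer dense fiber, fibrous sheath and RIIa-domain genes. The stages overlap for *Odf4* and *Ropn1l*, and the other 8 genes are higher in both RS samples than in both PS samples.

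Among the outer dense fiber genes, *Odf1* encodes a major cysteine-rich protein of the fibers. It had 59.4 and 81.1 RPKM in PS and 884 and 915 RPKM in RS. The stages were far apart, and RNA of *Odf1* was 13.1-fold higher in RS (log2 fold change 3.72, SE 0.18, edgeR adjusted p = 3.29e-06). *Odf1* rose from rank 1251 of the 17860 genes with reads in PS to rank 23 of 18853 in RS.

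*Odf2* encodes a fiber protein that is also a part of the appendages of centrioles in other cells. It was already abundant in PS, with 773 and 895 RPKM, and reached 1831 and 1827 RPKM in RS, the highest level of the list. The stages did not overlap, and the rise was 2.22-fold (log2 fold change 1.15, SE 0.12, edgeR adjusted p = 7.57e-05). The row of the transcript that starts at 29890063 on chromosome 2 took 70.8% and 72.6% of the RPKM of *Odf2* in PS and 71.5% and 71.8% in RS, so the use of the 2 listed starts was alike in both stages to within 2 percentage points. This split between overlapping isoforms was estimated by the authors' algorithm.

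*Odf3*, a protein of the tail cytoskeleton, had 17.9 and 29.8 RPKM in PS and 194 and 144 RPKM in RS. The stages did not overlap, and it was 7.28-fold higher in RS (log2 fold change 2.86, SE 0.26, edgeR adjusted p = 3.12e-05). *Odf4*, a membrane protein of the tail, had 133 and 179 RPKM in PS and 168 and 166 RPKM in RS. Both RS values of *Odf4* lay between the PS values. Its log2 fold change was 0.13 (SE 0.17, approximate 95% interval 0.876-fold to 1.37-fold, edgeR adjusted p = 0.499). A change as large as that of the other 3 fiber genes lies outside this interval.

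*Akap4*, on the X chromosome, encodes the main scaffold of the fibrous sheath and had the largest rise of the list. It had 41.2 and 50.2 RPKM in PS and 721 and 654 RPKM in RS. The stages did not overlap, and the difference was 15.5-fold (log2 fold change 3.95, SE 0.16, edgeR adjusted p = 3.29e-06). The transcript that starts at the downstream site, 7068213, took 80.9% and 85.8% of its RPKM in PS and 90.1% and 88.5% in RS. The reads of both starts rose, from 255 and 226 to 2845 and 2518 for the upstream start and from 1083 and 1364 to 25941 and 19460 for the downstream one.

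*Akap3*, an anchoring protein that binds AKAP4 in the sheath, had 55.8 and 63.5 RPKM in PS and 540 and 431 RPKM in RS. It was 8.37-fold higher in RS without overlap (log2 fold change 3.07, SE 0.16, edgeR adjusted p = 3.48e-06). *Fsip1*, named for its interaction with the sheath, was the lowest of the list in both stages, with 19.0 and 21.7 RPKM in PS and 93.6 and 77.3 RPKM in RS. The stages of *Fsip1* did not overlap, and the difference was 4.31-fold (log2 fold change 2.11, SE 0.16, edgeR adjusted p = 1.25e-05). In PS, *Fsip1* overlapped its neighbour in level, *Odf3*.

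The RIIa-domain genes behaved differently from each other. *Ropn1*, or ropporin, binds AKAP3 and rhophilin in the sheath. It had 42.4 and 52.5 RPKM in PS and 443 and 341 RPKM in RS, and it was 8.50-fold higher in RS without overlap (log2 fold change 3.09, SE 0.19, edgeR adjusted p = 4.97e-06). *Ropn1l*, its close relative, which is also a part of the axonemal radial spokes, had 1012 and 1036 RPKM in PS and 1065 and 902 RPKM in RS. The PS values of *Ropn1l* lay between those of RS, and the fold change was 0.988 (approximate 95% interval 0.834 to 1.17, edgeR adjusted p = 0.907). *Ropn1l* was thus the most abundant of the list in PS, 21.6 times the mean RPKM of *Ropn1*, and in RS it was 2.51 times that of *Ropn1*.

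*Spa17*, or sperm protein 17, was intermediate. It had 415 and 422 RPKM in PS and 904 and 771 RPKM in RS. The stages did not overlap, and the rise was 2.06-fold (log2 fold change 1.04, SE 0.13, edgeR adjusted p = 0.000159). The reads of the neighbouring gene *Siae*, which starts 127 bp away on the other strand, were few, at 138 to 188 per library.

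By mean RPKM the order in PS was *Ropn1l* (1024), *Odf2* (834), *Spa17* (418), *Odf4* (156), *Odf1* (70.2), *Akap3* (59.6), *Ropn1* (47.4), *Akap4* (45.7), *Odf3* (23.8) and *Fsip1* (20.4). Neighbours whose PS samples overlapped were *Odf1* and *Akap3*, *Ropn1* and *Akap4*, and *Odf3* and *Fsip1*. In RS the order was *Odf2* (1829), *Ropn1l* (983), *Odf1* (899), *Spa17* (837), *Akap4* (688), *Akap3* (486), *Ropn1* (392), *Odf3* (169), *Odf4* (167) and *Fsip1* (85.4). Neighbours that overlapped in RS were *Ropn1l* and *Odf1*, *Odf1* and *Spa17*, *Akap3* and *Ropn1*, and *Odf3* and *Odf4*. The spread of levels over the list was 50.2-fold in PS and 21.4-fold in RS.

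Each of the 10 genes had a higher RPKM in PS replicate 2 than in PS replicate 1, by little in *Ropn1l* (1012 and 1036) and *Spa17* (415 and 422). The share of all genes with this order was not computed, so the count shows nothing particular to the list. The summed spermatid markers were also higher in PS replicate 2, as given above. The part of spermatid RNA in the PS values was not tested. Without either PS library, each of the 8 genes that rose was still called.

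H3K27ac was measured as the highest fold enrichment of a peak summit over the background of its sample within 2 kb of a start site of the gene. All 10 genes had such a peak in both replicates of both stages, against 55.2% of the 23343 genes in PS and 50.6% in RS. The level differed by stage in most. By limma on the logarithm of 1 plus the fold enrichment, 7 genes were higher in RS (*Odf1*, *Odf3*, *Akap3*, *Akap4*, *Fsip1*, *Ropn1* and *Spa17*), 1 was lower (*Odf4*), and *Odf2* and *Ropn1l* were not called. Of the 13643 genes tested, 13.9% were called higher and 12.7% lower. Both RS samples lay above both PS samples in the 7 genes called higher, and in 14.5% of all genes tested, by the fold enrichment as deposited. The median log2 fold change was 0.85 for the 10 genes and -0.02 for all genes.

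The samples were centred on the start sites with a peak in all 4 samples before this test, which removed a common shift of -0.41 (log2) between RS and PS. Without centring, 3 genes were called higher (*Odf1*, *Odf3* and *Ropn1*) and 1 lower (*Odf4*), and the adjusted p was 0.0799 for *Akap3*, 0.127 for *Fsip1*, 0.169 for *Spa17* and 0.253 for *Akap4*. Over all genes, the calls were then 714 higher and 2169 lower, in place of 1900 and 1732. The direction of each of the 10 genes was the same with and without centring. The changes below are relative to the common shift, and the fold enrichments printed per sample are as deposited.

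**Figure D2:**
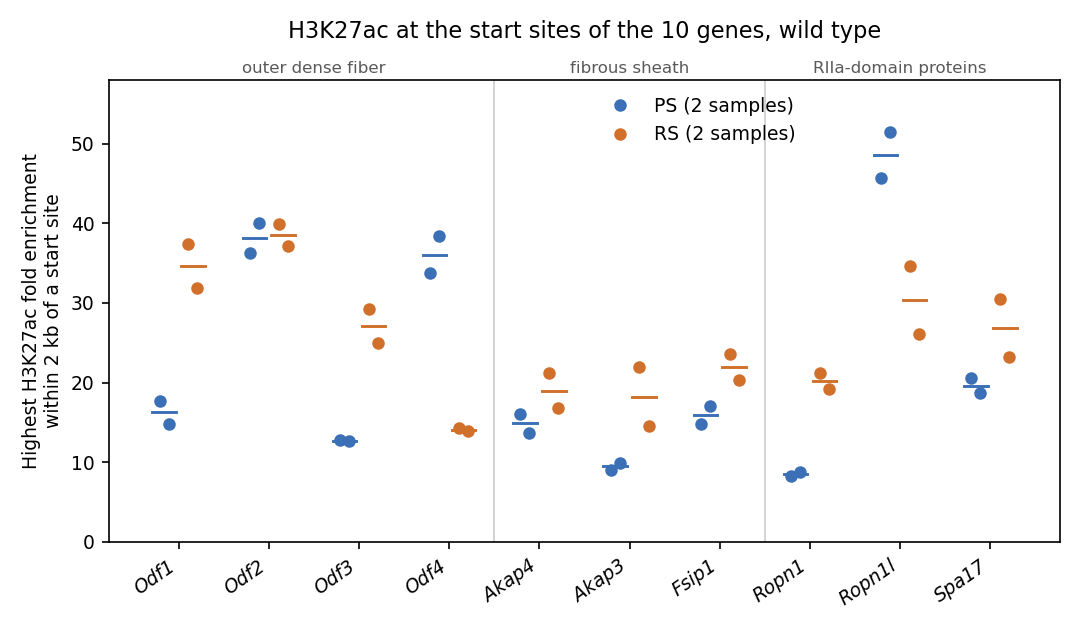
Highest H3K27ac fold enrichment, as deposited, within 2 kb of a start site of each gene in the 2 PS (blue) and 2 RS (orange) wild-type samples, with a bar at the mean. *Odf4* and *Ropn1l* are lower in both RS samples, *Odf2* overlaps, and the other 7 genes are higher in both RS samples.

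At the outer dense fiber genes, the fold enrichment at *Odf1* was 17.7 and 14.8 in PS and 37.4 and 31.9 in RS, with no overlap (log2 fold change 1.46, SE 0.14, limma adjusted p = 0.00194). At *Odf3* it was 12.8 and 12.6 in PS and 29.3 and 25.0 in RS, again with no overlap (log2 fold change 1.45, SE 0.11, limma adjusted p = 0.00164). The RS peaks over *Odf3* were wide, 6243 and 4871 bp against 2750 and 2596 bp in PS, and the files assign them also to the neighbours *C330022C24Rik* and *Scgb1c1*.

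*Odf2* had strong H3K27ac in every sample, 36.2 and 40.0 in PS and 39.9 and 37.2 in RS. These values overlapped. After centring, the log2 fold change of *Odf2* was 0.43 (SE 0.13, limma adjusted p = 0.0443), under the 1.5-fold limit, and without centring it was 0.02.

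*Odf4* went the other way. Its fold enrichment was 33.7 and 38.4 in PS and 14.2 and 13.9 in RS. Both RS values lay far below both PS values, and the difference was called (log2 fold change -0.88, SE 0.13, limma adjusted p = 0.00532). The summit stayed at nearly the same place, 120 and 308 bp downstream of the start in PS and 324 and 287 bp in RS. The start of *Odf4* thus kept a peak in RS, and RNA of *Odf4* overlapped between the stages.

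At the fibrous sheath genes, the fold enrichment at *Akap3* was 9.05 and 9.87 in PS and 22.0 and 14.5 in RS (log2 fold change 1.27, SE 0.14, limma adjusted p = 0.00233). At *Fsip1* it was 14.8 and 17.0 in PS and 23.6 and 20.3 in RS (log2 fold change 0.85, SE 0.11, limma adjusted p = 0.00331). Neither gene overlapped between the stages.

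At *Akap4*, the values within 2 kb were 16.1 and 13.7 in PS and 21.2 and 16.8 in RS (log2 fold change 0.74, SE 0.14, limma adjusted p = 0.0101). They did not overlap, but the gap was small, and the call was lost without PS replicate 2 (log2 fold change 0.58, under the 1.5-fold limit) or without RS replicate 2 (adjusted p = 0.0551). The position of the highest summit differed. In PS it lay 1985 and 1670 bp upstream of a start, and in RS 121 bp downstream and 156 bp upstream. Within 1 kb, the values of *Akap4* were 9.47 and 11.5 in PS and still 21.2 and 16.8 in RS. The log2 fold change was then 1.21 (limma adjusted p = 0.00213), but within 5 kb it was 0.60 (limma adjusted p = 0.00739). Over the whole region that covers the starts of *Akap4*, the highest values were 16.1 and 16.4 in PS and 21.2 and 16.8 in RS.

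At the RIIa-domain genes, *Ropn1* had the lowest H3K27ac of the list in PS, 8.23 and 8.77, and 21.2 and 19.2 in RS. This was the largest rise of the list within 2 kb (log2 fold change 1.57, SE 0.14, limma adjusted p = 0.00171). In RS replicate 2 the highest *Ropn1* summit lay 1728 bp upstream of the start. Within 1 kb, the RS values of *Ropn1* were 21.2 and 15.7. Its log2 fold change was then 1.43, below the 1.46 of *Odf1* and the 1.45 of *Odf3*. *Ropn1l* had the highest H3K27ac of the list in PS, 45.7 and 51.5, against 34.6 and 26.1 in RS. The values of *Ropn1l* did not overlap as deposited, but the difference from the common shift was not called (log2 fold change -0.26, SE 0.11, limma adjusted p = 0.110). As deposited, both RS values lay below both PS values at 58% of the genes tested.

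At *Spa17*, the fold enrichment was 20.6 and 18.6 in PS and 30.5 and 23.2 in RS, with no overlap (log2 fold change 0.84, SE 0.12, limma adjusted p = 0.00414). The *Spa17* peak covers also the start of *Siae*, so the mark cannot be assigned to either gene. RPKM of *Siae* was 4.78 and 4.93 in PS and 3.27 and 3.41 in RS.

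The promoter peak of each of the 10 genes was widest in RS replicate 1, the sample with the most peaks. In 8 of the 10 genes, the peak holding the highest summit was longer in both RS samples than in both PS samples. The shares of all genes with these orders of length were not computed, so both counts show nothing particular to the list. Peak length was not tested, and the calls are of fold enrichment. Without RS replicate 1, the 7 genes called higher and *Odf4* called lower were still called.

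Set side by side, 7 genes were called higher in RS in both assays (*Odf1*, *Odf3*, *Akap3*, *Akap4*, *Fsip1*, *Ropn1* and *Spa17*), as were 10.4% of the 12342 genes tested in both. Without centring of the H3K27ac samples these were 3 genes (*Odf1*, *Odf3* and *Ropn1*), against 4.46%. *Odf2* was called higher in RNA only, *Odf4* was called lower in H3K27ac only, and *Ropn1l* was called in neither. The 3 genes with the highest H3K27ac in PS were *Ropn1l*, *Odf2* and *Odf4*, and these were among the 4 genes with the most RNA in PS. The 2 genes not called in RNA were the 2 whose H3K27ac, as deposited, was lower in both RS samples. This is a description of 10 chosen genes in mice of different genotypes, and no relation between the assays was tested.

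**Figure D3:**
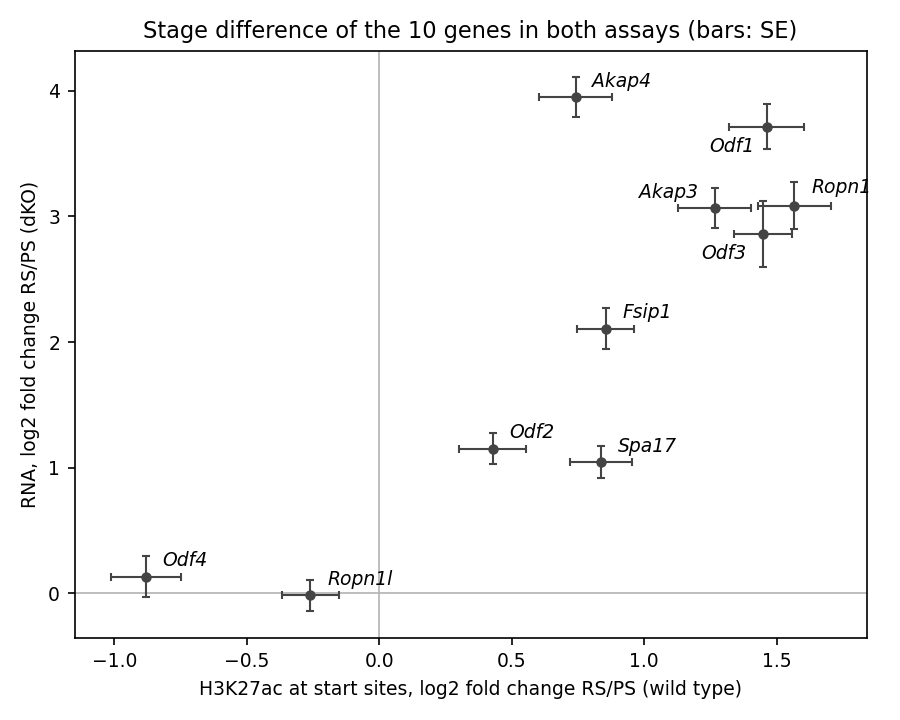
Log2 fold change of RS over PS in H3K27ac at the start sites of wild-type mice (horizontal, relative to the common shift) against that in RNA of the dKO (vertical), with SE bars, 1 point for each of the 10 genes. *Odf4* and *Ropn1l* lie left of 0 in H3K27ac and near 0 in RNA, and the other 8 genes lie above 0 in both.

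Away from start sites, 34 H3K27ac regions over 2 kb from every start were assigned to the 10 genes by the files and had a peak in both replicates of a stage. Of these, 20 were lower in both RS samples than in both PS samples and 13 were higher, by the fold enrichment as deposited, with 0 taken where no peak was called. Of the 20, 13 had no peak in either RS sample, and of the 13, 7 had no peak in either PS sample. The direction of these was set by the choice of regions with a peak in both replicates of a stage. The other 14 regions had a peak in both stages, and 7 of them were lower and 6 higher in RS. Among all 22005 regions chosen in the same way, 37.1% were lower and 54.7% higher. The surplus of lower regions came from *Akap4*, with 10 of 10 lower, on the X chromosome, where 75.2% of 1252 regions were lower. The 24 autosomal regions were lower in 41.7% and higher in 54.2%, against 34.7% and 56.9% of 20666 autosomal regions, so their split was near the background. The gene of a region is the one deposited with it, which is not always that with the nearest start. A contact with the gene was not measured.

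Of the *Akap4* regions, 8 formed a chain in PS that reached 20.7 kb upstream of the gene, and 2 lay at its end. Of its stronger regions, that centred 11.2 kb upstream was enriched 8.64- and 11.5-fold in the PS samples, against 3.25 and 0 in RS. Another was centred 17.3 kb upstream, with 9.88 and 10.4 in PS and no peak in RS, and another of like strength in PS was centred 6.57 kb upstream. In 7 of the 10 regions no RS sample had a peak. The upstream regions are assigned also to *Ccnb3*. The farthest of them lay 20519 bp from a start of *Akap4* and 5010 bp from the nearest start of any gene.

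At *Odf1*, a region centred 21.1 kb upstream (chr15:38196881-38199236, 2356 bp) was stronger in PS than the start site itself, with 26.8 and 25.2 in PS and 11.4 and 9.87 in RS. The start site of *Odf1* showed the opposite order, as given above. At *Ropn1*, an intergenic region centred 59.5 kb upstream (chr16:34591226-34592233, 1008 bp) had 20.2 and 28.0 in PS and no peak in either RS sample. This was above the 8.23 and 8.77 within 2 kb of the *Ropn1* start in PS, where the RS samples had 21.2 and 19.2. Both distal regions were thus higher in PS than in RS, the reverse of the start sites of the same genes.

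At *Odf2*, a 6313-bp region over exons and introns, centred 13.1 kb downstream of a start (chr2:29899977-29906289), had 12.3 and 13.7 in PS and 35.8 and 25.5 in RS. This internal region rose without overlap, whereas the start of *Odf2* overlapped between the stages. Further regions that were higher in both RS samples lay within *Ropn1l*, centred 5.03 kb downstream (5.76 and 4.93 in PS, 15.5 and 8.71 in RS), and within *Spa17*, centred 3.83 kb downstream (5.35 and 6.58 in PS, 15.5 and 13.4 in RS). At *Odf4*, the 2 distal regions were higher in RS, the nearer one centred 3.30 kb upstream, with 0 and 3.84 in PS and 9.36 and 6.39 in RS, while its start was lower in RS. *Akap3* and *Odf3* had no such region.

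**Figure D4:**
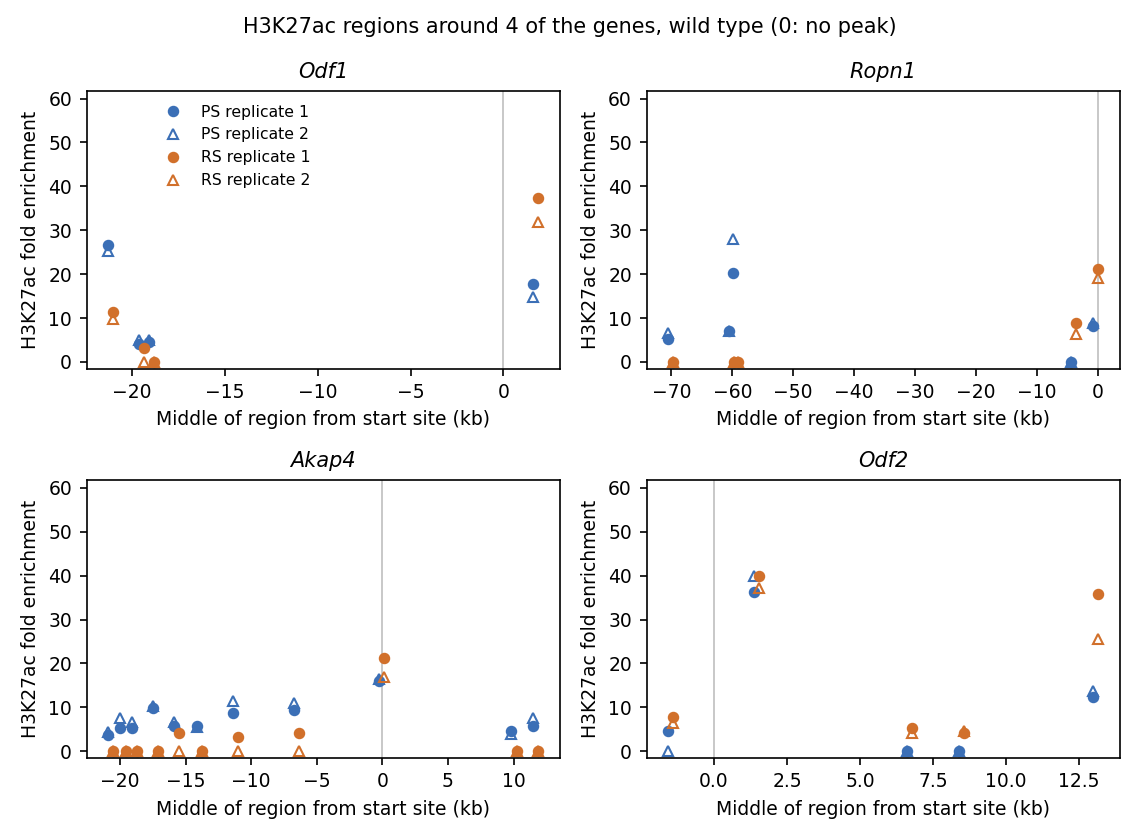
H3K27ac fold enrichment as deposited of each region assigned to *Odf1*, *Ropn1*, *Akap4* and *Odf2*, by the distance of its middle from the nearest start of the gene in kb (negative is upstream), in PS (blue) and RS (orange) replicates 1 (filled circles) and 2 (open triangles), with 0 where no peak was called. Stages are set slightly apart along the axis for legibility. The upstream regions of *Odf1* and *Akap4* and the far upstream ones of *Ropn1* are higher in PS, and the internal region of *Odf2* is higher in RS.

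Of 21 other genes of the same structures, 20 were in the tables and 19 were tested in each assay. *Odf3l2* had 0 reads in all libraries. In RNA, 10 of the 19 rose in RS, 2 fell (*Spag5* and *Rhpn1*) and 7 were not called, with a median log2 fold change of 2.74. In H3K27ac at start sites, 8 of the 19 were higher, 0 were lower and 11 were not called, with a median of 0.56. The background is the same as for the 10 genes, 30.4% and 27.6% for RNA and 13.9% and 12.7% for H3K27ac. Of the 10 that rose in RNA, 7 were also called higher in H3K27ac (5 without centring), and of all 3315 genes that rose in RNA and were tested in both assays, 38.6% were.

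The largest rise was that of *Prkar2a*, the type II alpha regulatory subunit of protein kinase A, which AKAPs bind. It had 2.17 and 3.14 RPKM in PS and 47.4 and 54.1 in RS, and it was 19.6-fold higher (log2 fold change 4.29, SE 0.21, edgeR adjusted p = 3.29e-06). Its H3K27ac overlapped between the stages, with 14.4 and 12.1 in PS and 16.3 and 13.4 in RS. After centring, the H3K27ac log2 fold change of *Prkar2a* was 0.56 (limma adjusted p = 0.0352), under the 1.5-fold limit. *Gapdhs*, the sheath-bound glyceraldehyde-3-phosphate dehydrogenase of sperm, had 56.4 and 90.6 RPKM in PS and 1029 and 1044 in RS, a 14.5-fold rise (edgeR adjusted p = 4.71e-06).

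*Oaz3*, the testis antizyme, rose 13.0-fold, from 81.5 and 108 RPKM to 1210 and 1195 (edgeR adjusted p = 3.29e-06). *Odf3b* rose 17.5-fold, from 9 and 21 reads in PS to 320 and 272 in RS (edgeR adjusted p = 1.59e-05), while its H3K27ac was low in every sample, from 4.06 to 6.10. *Fscb*, a calcium-binding sheath protein, rose 10.5-fold (edgeR adjusted p = 3.43e-06), and *Akap14* rose 9.79-fold, from 26 reads in each PS library to 378 and 200 in RS (edgeR adjusted p = 3.27e-05). The stages of these 6 did not overlap in RPKM, which is no separate result, since they were chosen for the largest RNA changes. In H3K27ac, *Gapdhs*, *Oaz3* and *Fscb* were called higher in RS (log2 fold change 1.44, 1.36 and 0.96). *Prkar2a*, *Odf3b* and *Akap14* were not called (0.56, 0.27 and 0.63).

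**Figure D5:**
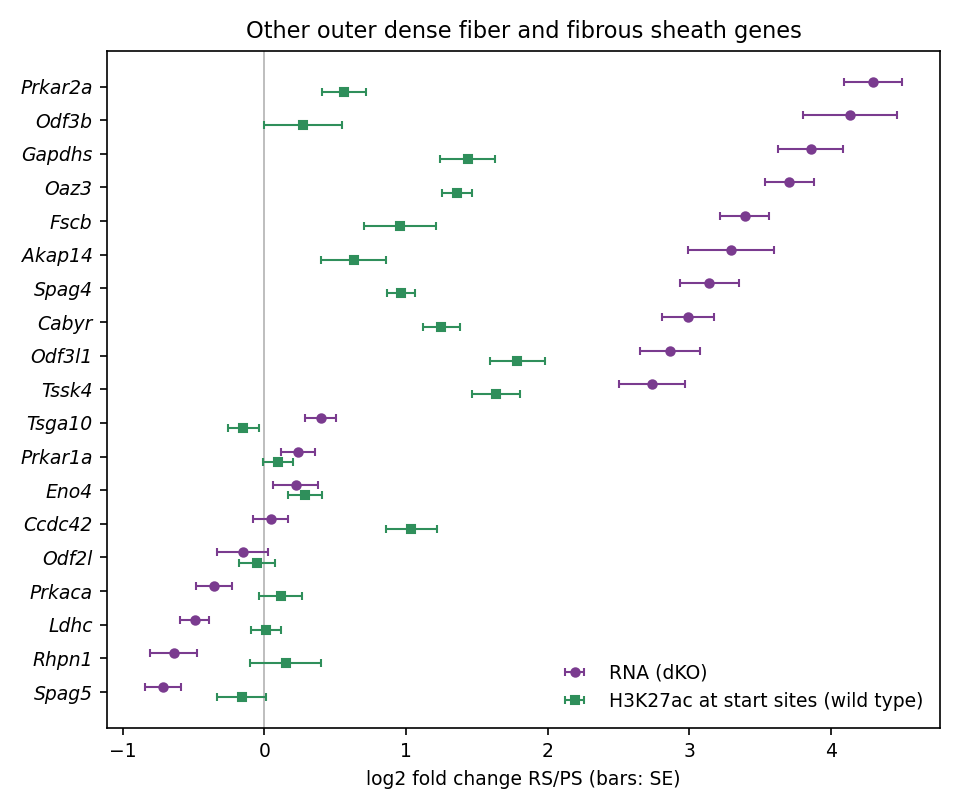
Log2 fold change of RS over PS, with SE bars, of the 19 other outer dense fiber and fibrous sheath genes tested, in RNA of the dKO (circles) and in H3K27ac at start sites of wild-type mice (squares). The 10 genes that rose have RNA changes of 2.74 or more, and the other 9 lie between -0.71 and 0.40.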

How the data were processed

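H3K27ac ChIP-seq (4 wild-type samples) and RNA-seq (4 dKO samples) were analysed, grouped by assay, genotype and stage from the sample labels. ChIP-seq libraries were made by ChIPmentation and RNA-seq libraries with an amplifying kit that does not mark strand. The authors mapped ChIP-seq reads with Bowtie (build mm10), and MACS2 gave them a peak list for every sample. Bowtie 1.1.1, MACS2 2.1.0.20140616 and STAR 2.4.2a are the versions in the submitters' processing notes. The deposited peak lists give the pileup signal at each summit (a number of fragments), the fold enrichment as a ratio of pileup + 1 to a sample's constant background + 1, and the -log10 p and q values. Their background was 0.723 to 1.46 fragments, and read totals are not given in the sources used here. RNA-seq reads were mapped by the authors with STAR (build mm10). Only unique alignments with at most 2 mismatches were used, and reads were split among RefSeq isoforms by expectation maximization. They deposited the estimated counts, which came out whole, and the RPKM, which is normalized for length and library size.

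Isoform rows were summed to genes. RNA counts were tested with edgeR 4.0.16 (quasi-likelihood, TMM; R 4.3.3) where 2 or more samples had 10 counts or more. The SE is the size of the log2 fold change divided by the square root of F. The approximate 95% interval is 1.96 SE to each side, a normal approximation. With few samples it is narrower than an interval from the quasi-likelihood F test. H3K27ac was tested with limma 3.58.1 (with trend) on log2(1 + fold enrichment), 0 where no peak was called, for genes with a peak in at least 2 samples, after centring on start sites with a peak in all 4. Calls needed a Benjamini-Hochberg adjusted p under 0.05 over all genes tested and a 1.5-fold change. With 2 samples per group no exact permutation test can go below 0.333. The labels do not tie the replicates to animals, so p-values measure the spread between these samples. Replicates differed by more than sampling noise (chi-square per degree of freedom 11.2 in PS and 6.89 in RS).

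The 10 genes, the list of other genes, the markers and the motifs were chosen with earlier results of these data known. Named were the 10 genes, the targeted genes, of the other genes the 6 with the largest RNA change among those called, the highest gene of each marker list, and genes starting within 2 kb of a start of the 10 genes. *Spag5*, *Rhpn1*, *Odf3l2* and genes that the files assign to the same regions were named after their values were seen. Alternatives covered DESeq2 1.42.0, size factors, filters, isoforms, RPKM with pseudocounts of 1 and 0.1, centring, windows, peak thresholds, a replicate block and leaving out each sample. Python 3.11.15 with pandas 2.3.3 and matplotlib 3.10.9 was used, and the scripts were tested on simulated data.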

Additional observations from a re-analysis of the deposited data

How the results depend on the processing

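For RNA, the 8 genes called higher in RS were called in each of 12 alternatives. For *Odf4*, the log2 fold change was -0.11 without PS replicate 1 (adjusted p = 0.505), 0.42 without PS replicate 2 (adjusted p = 0.0183, under the 1.5-fold limit) and within this range with either RS sample left out. For *Ropn1l* it was 0.05 without PS replicate 2 and 0.20 without RS replicate 2, and between -0.078 and 0.20 with each sample left out. Neither was called in any alternative. Without centring, H3K27ac calls over all genes were 714 higher, and among the 10 genes 3 were higher. The 4 calls lost were those of *Akap3* (log2 fold change 0.85), *Akap4* (0.33), *Spa17* (0.42) and *Fsip1* (0.44), and the construction of the setting, which keeps the common shift, sets this difference. Leaving out each sample in turn gave 1643 to 1985 start sites higher and 1022 to 2839 lower over all genes, and the call of *Akap4* was lost in 2 of these (log2 fold change 0.58 and 0.72, the cause was not tested). A sample left alone in its stage is assumed to vary like the other stage. All 10 genes kept a peak in both replicates of both stages within 1 kb, within 5 kb and at a -log10 q of at least 5.

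The samples carry replicate numbers 1 and 2 in each stage, which the labels do not tie to animals. Deviations of same-numbered samples correlated at 0.225 in RNA and 0.006 in H3K27ac. With the replicate block, 4589 genes were higher and 4134 lower in RNA, and 1756 and 1437 in H3K27ac, and no call among the 10 genes changed. In edgeR without the filter on low counts the median change over all genes moved to 0.18. Each of the 10 genes had 188 or more reads in every RNA library, and the effect of depth on the calls was not tested. The peak lists hold no reads between peaks, so an absent peak does not show absent H3K27ac.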
